A study of Mus musculus with 778 samples.

Results

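The genes described here belong to the machinery that shortens the poly(A) tail of an mRNA and then degrades the transcript. They are the adaptors *Btg4* and *Zfp36l2*, the CCR4-NOT scaffold *Cnot1*, the deadenylases *Cnot6*, *Cnot6l*, *Cnot7*, *Cnot8* and *Pan2*, and the decapping genes *Dcp1a* and *Dcp2*. The members were taken by name from the table of UMI counts, where all 10 were found among 23201 genes. Single oocytes of wild-type ICR mice were measured by single-cell RNA-seq, in which each cDNA molecule carries a unique molecular identifier (UMI), so that a molecule copied during amplification is counted once. Non-growing oocytes (NGO, under 20 μm, 46 cells) came from mice 3 to 4 days old. Growing oocytes of 30 to 45 μm (GO1, 51 cells), 50 to 55 μm (GO2, 26 cells) and 60 to 65 μm (GO3, 44 cells) and fully-grown oocytes (FGO, over 70 μm, 56 cells) came from mice 3 to 4 weeks old. Oocyte growth and mouse age therefore cannot be told apart in any comparison with NGO.

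A growing oocyte makes and stores the mRNA that it will use during meiotic maturation and in the early embryo. Much of this maternal mRNA is removed after maturation begins, and removal of the poly(A) tail by the CCR4-NOT complex is a central step. *Btg4* links the complex to its target mRNA and is needed for this clearance, *Zfp36l2* binds AU-rich elements, and decapping exposes the body of a deadenylated transcript to 5′-3′ decay. What was measured here is the mRNA of the decay factors themselves, before maturation, and neither decay nor tail length was measured.

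Levels are given as CPM, the UMIs of a gene in all cells of a stage per 1000000 UMIs of that stage. The totals were 25198132 UMIs in NGO, 26752883 at GO1, 24976634 at GO2, 49822036 at GO3 and 64311908 at FGO. The cells came from 4 libraries, and the column names give the stage of each oocyte but nothing on its library. Each stage was therefore 1 sample without replicates. Without the library of each cell, an effect of library cannot be told apart from one of stage, and no test between stages was made. The intervals given are 95% intervals that cover counting error only, and the spread over cells is given beside them as a description. A gene was called higher or lower when it differed by 2-fold or more and the higher of both stages had 10 CPM or more, which is a rule of size. CPM is a share of the mRNA molecules counted, so it does not follow the amount of mRNA in an oocyte, which grows in volume from NGO to FGO. GO1 rests on few cells, since its 10 deepest cells held 80.4% of its UMIs, and the median GO1 cell had 110146 UMIs against 540432 in NGO. In the shallowest GO1 cell 1 UMI was worth 44.9 CPM, so a single cell at 0 there says little about a gene of low level.

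All 10 oocyte marker genes were above 10 CPM in every stage, and their summed level was 26190 CPM in NGO, 14134 at GO1, 15737 at GO2, 16456 at GO3 and 20077 at FGO. *Zp3*, a gene of the zona pellucida, was the most abundant of them in NGO, GO3 and FGO, and *Gdf9*, an oocyte growth factor, in GO1 and GO2. The 10 granulosa cell markers summed to 10.1 CPM in NGO, 28.5 at GO1, 25.5 at GO2, 20.2 at GO3 and 11.4 at FGO. The most abundant of them in GO1 was the aromatase gene *Cyp19a1*, at 1.11, 16.3, 13.3, 6.70 and 1.54 CPM from NGO to FGO. The defining granulosa markers *Amh* and *Foxl2* were at or under 0.233 CPM in every stage. The other markers went both ways from NGO to GO1. *Inha* went from 1.47 to 3.59 CPM, *Cyp11a1* from 0.198 to 2.80 and *Hsd17b1* from 0.119 to 0.561, while *Fshr* went from 2.82 to 2.32, *Wnt4* from 2.34 to 1.61 and *Inhba* from 1.67 to 0.785. In GO1, 5 of the 10 markers were under 1 CPM. The granulosa sum, most of it *Cyp19a1* in GO1, moved with the genes below that were highest in GO1, and its part in those results was not tested. The 6 stromal or theca markers summed to 7.98 CPM in NGO, with *Dcn* the most abundant, and to at most 0.653 CPM in every later stage. The 6 blood markers summed to between 1.57 and 4.60 CPM, nearly all of it from *Cd68*, and the haemoglobin genes were at 0.

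From NGO to GO1, 6 of the 10 genes rose past the rule of size and 1 fell, and this first step of growth held most of the change seen. *Dcp1a* rose most, 5.67-fold, followed by *Cnot7*, *Cnot6l*, *Cnot6*, *Btg4* and *Dcp2*, while *Zfp36l2* fell. Across the 8527 genes that had 10 CPM or more in one of these stages, 20.6% were higher in GO1 and 25.7% were lower. The median log2 change of the 10 genes was 1.28, beside −0.15 over all genes tested. The choice of scaling moved the median of all genes by 0.12 with size factors from the median of ratios, by 0.19 with TMM factors and by −0.21 with the mean over cells. Counted relative to the median of all genes, 6 genes were higher and 1 lower with either set of factors, and 7 were higher and 0 lower with the mean over cells. The plot of values by stage shows all cells.

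**Figure D1:**
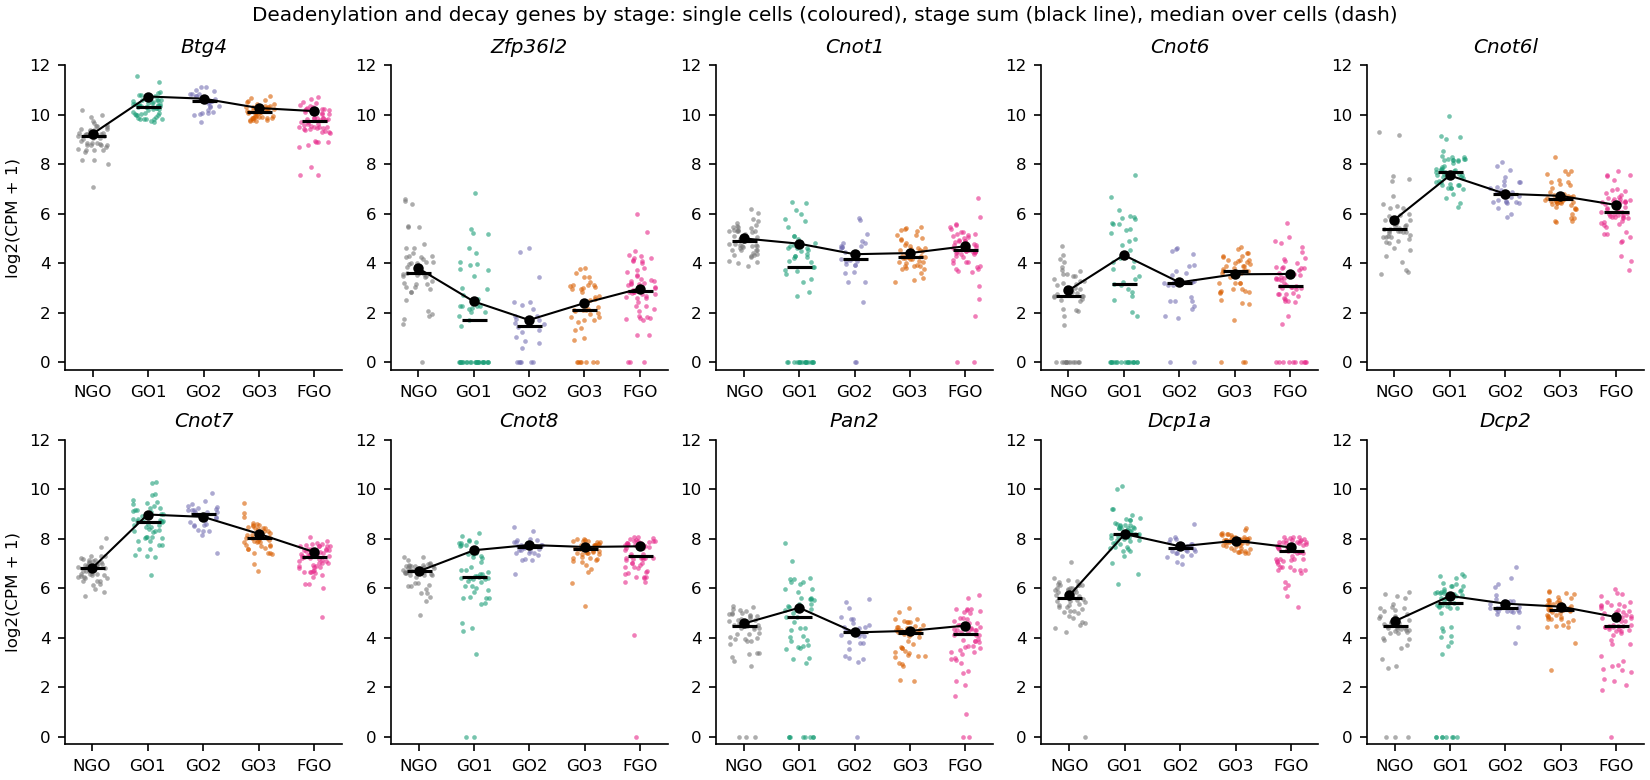
CPM of the 10 genes in the 5 stages, on a scale of log2(CPM + 1), where each coloured point is a cell, the black line joins the CPM of the stage sums and the dash is the median over cells. *Dcp1a*, *Cnot7*, *Cnot6l* and *Btg4* step up between NGO and GO1, and many GO1 cells lie at 0 for *Zfp36l2*, *Cnot1* and *Cnot6*.

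*Btg4* (chromosome 9, 50924106 to 50927980, plus strand, NCBIM37) encodes the adaptor through which CCR4-NOT is brought to maternal mRNA. Its level was 600.4 CPM in NGO, 1707 at GO1, 1607 at GO2, 1236 at GO3 and 1134 at FGO. NGO cells ranged from 134.4 to 1163 CPM with a median of 564, and GO1 cells from 835 to 3000 CPM with a median of 1283. The level thus stepped up when growth began and then went down slowly, and it stayed above NGO in the fully-grown oocyte. The rise was 2.84-fold (2.79 to 2.90), and 34 of the 51 GO1 cells lay above the highest NGO cell. No neighbouring stages had overlapping counting intervals. The direction from GO1 to GO2 was kept in 1 of 9 alternatives, so which of both stages was highest depended on the setting. With size factors from the median of ratios *Btg4* was at 1675 in GO1 and 1804 in GO2, and with TMM factors at 1684 and 1779. From GO1 to FGO the level was 1.51-fold lower, and FGO was 1.89-fold above NGO, both within 2-fold in the sums. The latter log2 change, 0.92, went from 0.26 in the shallower cells, at 514 and 617 CPM, to 1.09 with TMM factors, past the rule, and the former just reached it in the shallower cells, at −1.001.

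*Zfp36l2* (chromosome 17, 84583271 to 84587287, minus strand) encodes an RNA-binding protein that brings the same complex to AU-rich transcripts. It was at 12.98 CPM in NGO, 4.52 at GO1, 2.28 at GO2, 4.28 at GO3 and 6.92 at FGO, so it was highest in the stage where *Btg4* was lowest. NGO cells had a median of 11.2 CPM and reached 97.3, and GO1 cells had a median of 2.31 CPM and reached 112.2. The full ranges of the cells overlapped, with 24 of 51 GO1 cells and 1 of 46 NGO cells at 0. The spans from lower to upper quartile did not overlap, at 7.56 to 18.5 CPM in NGO cells and 0 to 6.999 CPM in GO1 cells. The fall from NGO to GO1 was 2.87-fold (2.32 to 3.56). The counting intervals were 11.6 to 14.5 CPM in NGO and 3.75 to 5.40 CPM in GO1, and the call was kept in 7 of 9 alternatives. In the 25 shallower GO1 cells the level was 10.7 CPM, against 17.8 CPM in the 23 shallower NGO cells, a fall within 2-fold. The fall was also within 2-fold in thinned cells, from 13.04 to 6.86 CPM. In the sums the stages from GO1 on were all under 10 CPM, so no call was made among them. In the shallower cells *Zfp36l2* passed the rule between them, going from 10.7 CPM in GO1 to 4.07 in GO2 and from 4.14 in GO3 to 10.1 in FGO. In thinned cells it went from 4.55 CPM in GO3 to 14.3 in FGO, which was then the highest stage, above the 13.04 CPM of NGO, but these levels are under that of 1 UMI per thinned cell.

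*Cnot1* (chromosome 8, 98243351 to 98331366, minus strand) encodes the large scaffold on which the subunits of CCR4-NOT assemble. Its level was 31.2 CPM in NGO, 26.8 at GO1, 19.7 at GO2, 20.4 at GO3 and 24.9 at FGO. The highest stage was 1.58-fold above the lowest, the narrowest span of the stage sums among the 10 genes, and no comparison of the sums reached 2-fold. In alternatives it did, with a log2 change from NGO to GO1 of −1.08 by the median over cells and −1.23 in the shallower cells, from GO1 to FGO of 1.04 in the shallower cells, and in thinned cells of −1.53 from GO1 to GO2 and 2.18 from GO2 to GO3. GO1 and FGO had overlapping counting intervals, as did GO2 and GO3. NGO cells ranged from 13.96 to 71.97 CPM around a median of 28.5, and GO1 cells from 0 to 87.8 CPM around 13.5. The GO1 level moved with depth, at 27.5 CPM in the 26 deeper cells and 12.9 CPM in the 25 shallower cells. Its 5′ end shares exon bases with the noncoding gene *4930513N10Rik* on the opposite strand, which had 398 UMIs in the table, and the strand of counting is not given in the sources used here.

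*Cnot6l* (chromosome 5, 96499352 to 96593190, minus strand) and *Cnot6* (chromosome 11, 49485005 to 49526225, minus strand) encode alternative CCR4-type deadenylases, of which a complex carries one. *Cnot6l* was at 53.5 CPM in NGO, 186 at GO1, 111.1 at GO2, 104.97 at GO3 and 81.3 at FGO. Cells ranged from 10.9 to 625 CPM in NGO (median 40.9) and from 75.6 to 983 CPM in GO1 (median 206). Most of the separation came from the lower side, since 38 of the 46 NGO cells lay below every GO1 cell, while 1 GO1 cell lay above every NGO cell. The rise was 3.49-fold (3.28 to 3.70). *Cnot6* was at 6.51, 19.2, 8.41, 10.8 and 10.9 CPM from NGO to FGO, and its rise to GO1 was 2.95-fold (2.47 to 3.54). NGO cells ranged from 0 to 25.1 CPM around a median of 5.51, and GO1 cells from 0 to 189 CPM around 7.97, so the medians showed a smaller difference than that of the sums. *Cnot6l* made up 89.2% of the UMIs of both genes in NGO, 90.7% at GO1, 92.97% at GO2, 90.7% at GO3 and 88.2% at FGO. In the sums the ratio of *Cnot6l* to *Cnot6* UMIs went from 8.22 in NGO to 13.2 in GO2 and 7.45 in FGO. The counting interval of the GO2 share (91.99% to 93.9%) did not overlap those of the other stages. In cells with 20 or more UMIs of the pair, the median share was 88.8% in NGO and 92.7% at GO2. The NGO ratio depended on the setting. Shallower cells gave 80.4 and 5.87 CPM in NGO and 134.8 and 9.82 in GO2, nearly the same ratio. Thinned cells gave 82.6 and 3.26 CPM in NGO and 96.2 and 7.69 in GO2, a higher ratio in NGO.

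*Cnot7* (chromosome 8, 41577894 to 41601201, minus strand) and *Cnot8* (chromosome 11, 57917655 to 57932096, plus strand) encode the alternative CAF1-type deadenylases, with which BTG proteins make contact. *Cnot7* was at 110.4 CPM in NGO, 501 at GO1, 469 at GO2, 292 at GO3 and 174 at FGO. NGO cells lay between 50.3 and 257 CPM with a median of 112.9, GO1 cells between 90.2 and 1259 with a median of 411, and FGO cells between 27.7 and 267 with a median of 153.002. The level therefore rose at the start of growth and came down again in the later stages. The rise to GO1 was 4.54-fold (4.36 to 4.73), with 41 of 51 GO1 cells above the highest NGO cell. The decline from GO1 to FGO was 2.88-fold (2.81 to 2.95), with 38 of 51 GO1 cells above the highest FGO cell. As for *Btg4*, the order of GO1 and GO2 was kept in 1 of 9 alternatives, and with both sets of scaling factors GO2 was the higher, at 527 against 492 by the median of ratios and 519 against 494 by TMM.

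*Cnot8* took another course, at 101.3 CPM in NGO, 184 at GO1, 213 at GO2, 202 at GO3 and 205 at FGO. NGO cells had a median of 101.9 CPM (28.8 to 153.5), GO1 cells a median of 85.9 CPM (0 to 301) and FGO cells a median of 154.1 CPM (0 to 270). From GO2 to GO3 it was 0.946 times as high (0.915 to 0.978), and from GO3 to FGO 1.02 times (0.992 to 1.05), so in the sums it moved little after GO2. From NGO to FGO it was 2.03-fold higher (1.94 to 2.11), just past the limit, and the call was kept in 3 of 9 alternatives, with 1.41-fold in the shallower cells. The step from NGO to GO1 was 1.81-fold in the sums, past the rule with TMM factors (1.02 on the log2 scale), yet its direction turned with the median over cells, at −0.25 on the log2 scale, and was kept in 6 of 9 alternatives. Depth moved with this gene, since the 26 deeper GO1 cells gave 189 CPM and the 25 shallower cells 91.5 CPM.

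Within the CAF1-type pair the share of each gene was followed over the stages. *Cnot7* made up 52.1% of the UMIs of both genes in NGO (exact binomial interval 50.8 to 53.5), 73.2% at GO1 (72.5 to 73.8), 68.8% at GO2 (68.1 to 69.5), 59.1% at GO3 (58.5 to 59.7) and 45.9% at FGO (45.3 to 46.5). These shares are used to compare stages and not the level of one gene with the other. The same holds for the shares of the other pairs of paralogues. Among cells with at least 20 UMIs of the pair, the median share was 50.96% in NGO (42 cells), 78.3% at GO1 (43 cells), 72.2% at GO2 (26 cells), 60.1% at GO3 (44 cells) and 46.7% at FGO (53 cells). Cells overlapped between stages, with 29 of 43 GO1 cells above the highest NGO cell and 14 of 26 GO2 cells above the highest FGO cell. The order of the stages, with GO1 highest and FGO lowest, was the same in 7 of 7 alternatives, including the shallower cells (83.98% in GO1 and 47.3% in FGO) and the deeper cells (72.7% and 45.7%). Both genes are paralogues, and reads that fit both could be counted for either. Their coding sequences were 72.4% identical over 855 aligned bases, and the longest stretch without a mismatch between the transcripts compared, 1 for each gene, is 20 bases. It is shown as the place where they are most alike, and reads aligned with mismatches or from other isoforms may fit both over more bases:

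*Cnot7* and *Cnot8*: tcatttcacagtggttatga

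*Cnot7* also shares 247 exon bases with *Zdhhc2* on the opposite strand, a gene with 40 UMIs in the whole table.

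**Figure D2:**
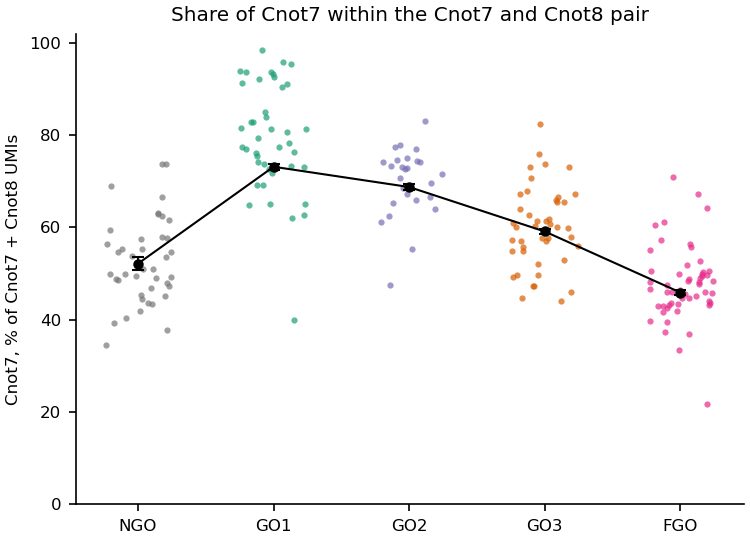
Share of *Cnot7* in the UMIs of *Cnot7* and *Cnot8* (percent) in the 5 stages, with cells of at least 20 UMIs of the pair as coloured points and the stage sums as black points with exact 95% binomial intervals. The share of the sums goes from 52.1% in NGO to 73.2% in GO1 and down to 45.9% in FGO.

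*Pan2* (chromosome 10, 127740391 to 127758403, plus strand) encodes the catalytic subunit of the other main deadenylase, which trims long tails with its partner *Pan3*. It was at 22.8 CPM in NGO, 35.96 at GO1, 17.5 at GO2, 18.3 at GO3 and 21.4 at FGO. GO1 cells ranged from 0 to 227 CPM around a median of 27.7, and NGO cells from 0 to 37.3 CPM around 20.9. From NGO to GO1 it was 1.58-fold higher, within the limit, and with an equal number of cells per stage its direction turned (−0.07 on the log2 scale). In thinned cells it passed the rule, at 1.70 on the log2 scale, from 10.9 to 35.3 CPM, levels under that of 1 UMI per thinned cell. From GO1 to GO2 it was 2.05-fold lower (1.83 to 2.30), but this passed the rule in 1 of 9 alternatives, and with an equal number of cells per stage the difference was 1.24-fold.

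*Dcp1a* (chromosome 14, 31292751 to 31340242, plus strand) encodes the activator of the decapping enzyme. It was at 51.1 CPM in NGO, 290 at GO1, 205 at GO2, 240.1 at GO3 and 199 at FGO. NGO cells lay between 0 and 132.7 CPM with a median of 47.9, and GO1 cells between 70.0 and 1120 CPM with a median of 287. Of the 51 GO1 cells 48 lay above the highest NGO cell, the largest such count among the 10 genes, and 40 of 46 NGO cells lay below the lowest GO1 cell, against 42 for *Btg4*. The rise was 5.67-fold (5.34 to 6.02), and FGO was still 3.89-fold above NGO (3.67 to 4.12). Over 9 alternatives its log2 change from NGO to GO1 stayed between 2.37 and 2.99. Its paralogue *Dcp1b* was at 5.95 CPM in NGO and 2.47 in GO1, and *Dcp1a* made up 89.6% of the UMIs of both genes in NGO and 99.2% in GO1.

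*Dcp2* (chromosome 18, 44540154 to 44584623, plus strand) encodes the enzyme that removes the cap. It was at 24.3 CPM in NGO, 50.5 at GO1, 40.4 at GO2, 37.1 at GO3 and 27.5 at FGO. Cells ranged from 0 to 56.4 CPM in NGO (median 21.5), 0 to 93.7 in GO1 (median 41.5) and 0 to 62.2 in FGO (median 21.4), so the level went up at the start of growth and was near that of NGO at the end. The rise to GO1 was 2.07-fold (1.88 to 2.29), just past the limit, with the call kept in 3 of 9 alternatives, and its log2 change fell to 0.33 in the shallower cells against 1.05 in the full sums. *Cnot8*, at 1.81-fold, was the gene nearest below that limit in this comparison.

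**Figure D3:**
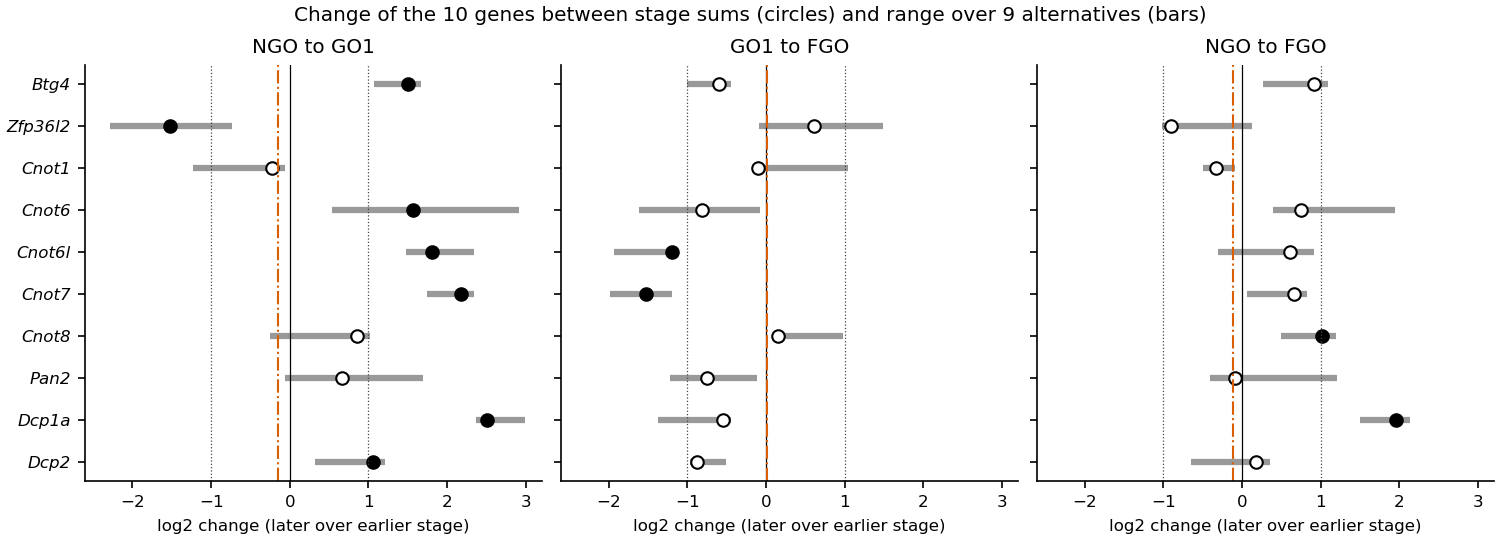
Log2 change of the 10 genes between the stage sums in 3 comparisons (circles, filled where past the 2-fold and 10 CPM rule), with grey bars for the lowest to highest of 9 alternative settings, dotted lines at 2-fold and an orange line at the median of all genes tested. From NGO to GO1, *Dcp1a*, *Cnot7*, *Cnot6l* and *Btg4* lie above 2-fold under every alternative shown, and the bars of *Cnot8* and *Pan2* cross 0.

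Among the genes that rose at the start of growth, the promoters differed in CpG content. RefSeq promoter windows of 300 bases (250 before and 50 after the start, build GRCm38.p6) were found for 6 of the 10 genes. They are shown for *Btg4* and *Dcp1a*, an adaptor and a decapping gene that both rose to GO1, with matches to the E-box CANNTG in capitals. An E-box is the kind of site bound by basic helix-loop-helix factors, to which the oocyte factor FIGLA belongs.

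*Btg4*: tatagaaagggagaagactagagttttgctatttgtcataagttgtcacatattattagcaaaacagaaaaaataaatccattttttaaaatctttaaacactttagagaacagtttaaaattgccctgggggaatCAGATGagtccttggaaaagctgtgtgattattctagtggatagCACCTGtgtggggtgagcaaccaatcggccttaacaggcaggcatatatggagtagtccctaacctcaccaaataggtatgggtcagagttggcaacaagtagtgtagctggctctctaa

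*Dcp1a*: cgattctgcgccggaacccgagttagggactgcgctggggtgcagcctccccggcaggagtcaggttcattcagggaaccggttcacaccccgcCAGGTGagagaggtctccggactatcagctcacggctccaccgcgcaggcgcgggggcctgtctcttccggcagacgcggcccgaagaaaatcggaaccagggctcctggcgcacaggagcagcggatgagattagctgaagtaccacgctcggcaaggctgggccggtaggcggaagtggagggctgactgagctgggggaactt

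The *Btg4* window, chr9:51115751-51116050 on the plus strand, has 1 CpG and a GC content of 39%. The *Dcp1a* window, chr14:30479315-30479614 on the plus strand, has 25 CpG and a GC content of 65.3%. Among 27018 promoter windows, 5.77% had fewer CpG than that of *Btg4* and 81.6% had fewer than that of *Dcp1a*. *Cnot6* had 33 CpG, *Pan2* had 15, the 3 starts of *Cnot6l* had 31 to 49, and the 4 starts of *Cnot8* had 3 to 30. E-box matches numbered 2 in *Btg4*, 1 in *Dcp1a* and 0 in *Cnot6* and *Pan2*. The starts of *Cnot6l* held 0, 2 and 1, and those of *Cnot8* 1, 0, 0 and 0. Of all windows 72.2% held at least 1. The letters TAATTG, a homeodomain motif that the oocyte factor NOBOX binds, and TATAAA, the TATA box, were searched on both strands as well. Neither was in any window of the 6 genes, while 8.15% and 14.2% of all windows held them. No 6-base word fits more than 1 of the 3 motifs, but matches may overlap in part. A match describes letters and not a bound site.

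During later growth few of the 10 genes passed the rule in the stage sums, and those that did were lower in the later stage. From GO1 to GO2, *Cnot6* was 2.29-fold lower (1.94 to 2.70) and *Pan2* 2.05-fold lower, which is 2 of 9 genes tested, with the call of *Pan2* kept in 1 of 9 alternatives, where 3.03% of all genes tested were lower and 0.109% higher. The call of *Cnot6* was kept in 7 of 9 alternatives. It was just lost with size factors from the median of ratios, at −0.998 on the log2 scale. The fall of *Cnot6* was not seen in the median over cells, at 8.29 CPM in GO2 against 7.97 in GO1. *Cnot8* passed the rule upward in 2 alternatives of this step, at a log2 change of 1.21 with the median over cells and 1.06 without the 10 deepest cells, beside 0.21 in the sums. From GO2 to GO3 no gene of the 10 was called, beside 3.34% higher and 1.01% lower among all genes. From GO3 to FGO again none was called, beside 2.41% higher and 3.54% lower. Over the whole span from GO1 to FGO, *Cnot7* was 2.88-fold lower and *Cnot6l* 2.29-fold lower (2.21 to 2.38), which is 2 of 9 tested, where 9.03% of all genes were lower and 7.98% higher. In the shallower cells *Btg4* (−1.001 on the log2 scale), *Cnot6* (−1.61), *Pan2* (−1.21) and *Dcp1a* (−1.37) passed the rule in that span as well. *Cnot1* passed it upward in those cells (1.04). The median log2 change in that span was −0.67 over all 10 genes, *Zfp36l2* at under 10 CPM included, beside 0.02 over all genes tested. From NGO to FGO, *Dcp1a* (call kept in 9 of 9 alternatives) and *Cnot8* (3 of 9) were higher and none was lower in the stage sums, beside 11.3% higher and 16% lower among all genes, and the median log2 change was 0.63 beside −0.12. With the mean over cells *Zfp36l2* passed the rule downward from NGO to FGO, from 18.7 to 9.26 CPM. In thinned cells *Cnot6* (3.26 to 12.5 CPM) and *Pan2* (10.9 to 25 CPM) passed it upward. These comparisons share stages, so their counts are not independent.

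In the stage sums, 7 of the 10 genes (*Btg4*, *Cnot6*, *Cnot6l*, *Cnot7*, *Pan2*, *Dcp1a* and *Dcp2*) were highest in GO1, but this held in 9 of 9 alternatives only for *Cnot6l* and *Dcp1a*. It held in 8 for *Cnot6* and *Pan2*, in 6 for *Dcp2*, and in 1 for *Btg4* and *Cnot7*, which were highest in GO2 under the others, both sets of scaling factors included. In the sums *Cnot8* was highest in GO2, and *Zfp36l2* and *Cnot1* in NGO. In 7 genes NGO was the lowest stage of the sums.

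Because GO1 and FGO held cells of very unequal depth, levels were also summed over the deeper and the shallower cells of each stage. *Cnot7* was nearly the same in both groups of GO1 cells, at 502 CPM in the 26 deeper and 480 in the 25 shallower cells. *Btg4* was at 1733 CPM in the deeper and 1234 in the shallower GO1 cells, and at 1222 and 617 CPM in FGO. *Dcp1a* was at 287 and 343 CPM in GO1, and at 210 and 132.8 CPM in FGO. *Cnot7* was at 183 and 121.3 CPM in FGO and *Cnot8* at 217 and 135.3 CPM. The shallower FGO cells were thus lower in these genes than the deeper FGO cells, and the part of depth in the stage differences was not tested.

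**Figure D4:**
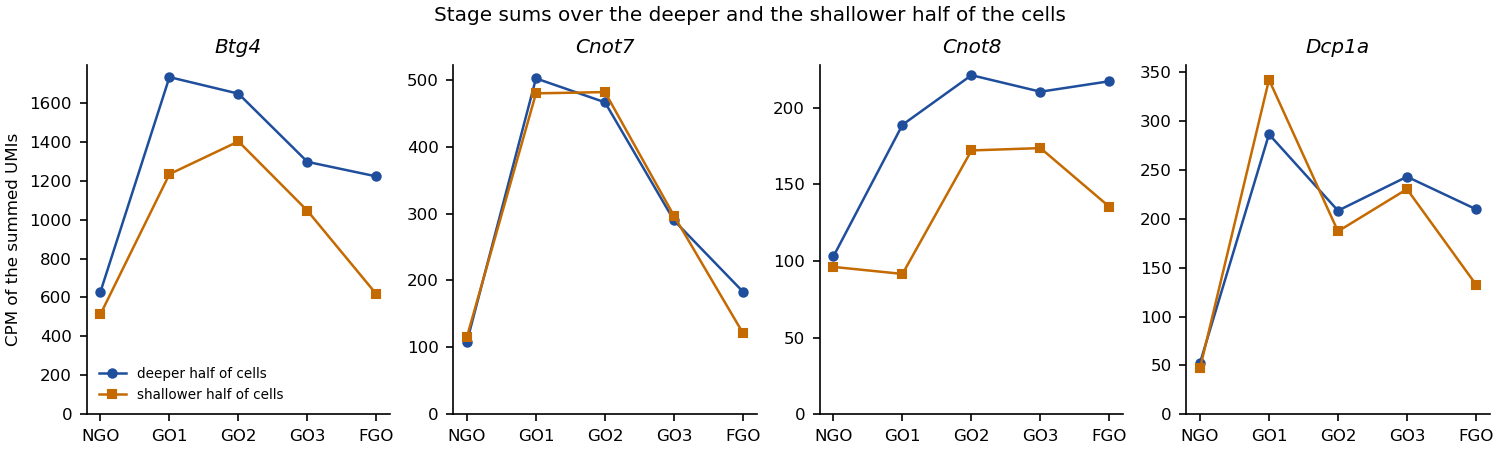
CPM of *Btg4*, *Cnot7*, *Cnot8* and *Dcp1a* by stage, summed over the deeper cells (circles) and the shallower cells (squares) of each stage, split at the median depth. *Cnot8* in GO1 is at 189 CPM in the deeper and 91.5 CPM in the shallower cells, while *Cnot7* in GO1 is at 502 and 480 CPM.

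The rest of the decay machinery was described in the same way. Of 93 further genes of deadenylation and decay, 77 could be tested from NGO to GO1, of which 17 were higher and 18 lower, against the 20.6% and 25.7% of all genes, with a median log2 change of −0.09. The split moved with the scaling, to 19 higher and 12 lower with size factors from the median of ratios and 21 higher and 10 lower with TMM factors. The median of all genes moved up with these factors as well, by 0.12 and 0.19. Shares of all genes under these factors are not given here, so the scaled splits are not set against them. In the stage sums the shares lie near those of all genes. What follows therefore describes single genes in the stage sums, and calls lost under either scaling are named. Among 7 further CCR4-NOT subunits, 3 rose and 1 fell. *Cnot11* rose from 36.8 to 127.1 CPM, *Cnot3*, a subunit of the NOT module, from 181 to 485 CPM and *Tnks1bp1* from 8.29 to 22.5 CPM. *Cnot10*, the partner of *Cnot11* in the complex, fell from 77.5 to 35.7 CPM, a call lost with TMM factors, and is named after its value was seen. The call of *Tnks1bp1* was kept in 4 of 9 alternatives. Among the BTG and TOB adaptors, relatives of *Btg4*, *Tob2* rose from 22.03 to 120.8 CPM, *Tob1* went from 57.7 to 28.3 CPM, a call lost under both scalings (log2 −0.93 and −0.87), and *Btg2* was at 25.2 and 14.5 CPM, within 2-fold. Among 6 tested deadenylases outside the complex, 2 rose and 3 fell, with 2 of the 3 calls kept by median-of-ratios factors and 1 by TMM factors. The call of *Parn* was lost with TMM factors and that of *Angel1* under both scalings. *Pan3*, the partner of *Pan2*, rose from 21.2 to 104.03 CPM, *Angel2* rose from 76.2 to 290 CPM, and *Pnldc1* fell from 35.2 to 11.8 CPM.

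The poly(A) binding proteins coat the tail that deadenylases remove. Their group, listed together with the interacting proteins *Paip1* and *Paip2*, held the largest rise among the 77 genes tested. *Pabpn1l*, an oocyte poly(A) binding protein that works with *Btg4*, went from 113.1 CPM in NGO to 1037 at GO1, 1378 at GO2, 1293 at GO3 and 1298 at FGO. Of 7 tested genes of this group 4 rose and 1 fell, *Paip1* rising from 180 to 655 CPM and *Pabpc4*, a cytoplasmic poly(A) binding protein, falling from 635 to 157.7 CPM. Among 10 tested mRNA-binding recruiters, 3 rose and 1 fell. *Nanos2* rose from 17.4 to 68.5 CPM and *Khsrp*, which binds AU-rich elements, from 21.1 to 54.8 CPM, and the m6A reader *Ythdf2* fell from 324 to 96.2 CPM.

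Of 15 tested genes for decapping and its activation 5 fell and 1 rose, or 4 and 2 under either scaling. The call of *Lsm5*, from 429 to 206 CPM, was lost under both scalings and kept in 1 of 9 alternatives. *Edc3*, an enhancer of decapping, fell 8.79-fold from 15.4 to 1.76 CPM, the RNA helicase *Ddx6* fell from 127.2 to 36.1 CPM and *Lsm4* from 297 to 84.3 CPM. Of 16 tested genes of a list for decay from the 3′ end, which holds the exosome and SKI complexes, *Dis3l2* and the ribosome rescue factors *Hbs1l* and *Pelo*, 5 fell and 2 rose, or 3 and 3 under either scaling. The call of *Dis3*, from 13.5 to 6.69 CPM, was lost under both scalings and kept in 5 of 9 alternatives. *Skiv2l*, the SKI helicase, fell from 108.9 to 19.1 CPM, *Wdr61* from 117.1 to 33.7 CPM and *Dis3l2*, an exonuclease for uridylated RNA that acts apart from the exosome, from 10.6 to 3.36 CPM, the last a call kept in 4 of 9 alternatives and lost under both scalings, where its level was under 10 CPM. The 5′-3′ exonucleases were not called, *Xrn1* at 32.7 and 30.7 CPM and *Xrn2* at 68.3 and 104.5 CPM. Neither tested gene of terminal uridylation was called, with *Zcchc6* at 13.2 and 24.6 CPM (past 2-fold with TMM factors) and *Tut1* at 33.1 and 27.4 CPM. In nonsense-mediated decay, *Upf1* rose from 15.4 to 83.3 CPM, *Upf3a* went from 49.6 to 23.4 CPM, a call lost under both scalings (log2 −0.98 and −0.92), and *Upf3b* was at 56.4 and 104.5 CPM, within 2-fold but past it with TMM factors.

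**Figure D5:**
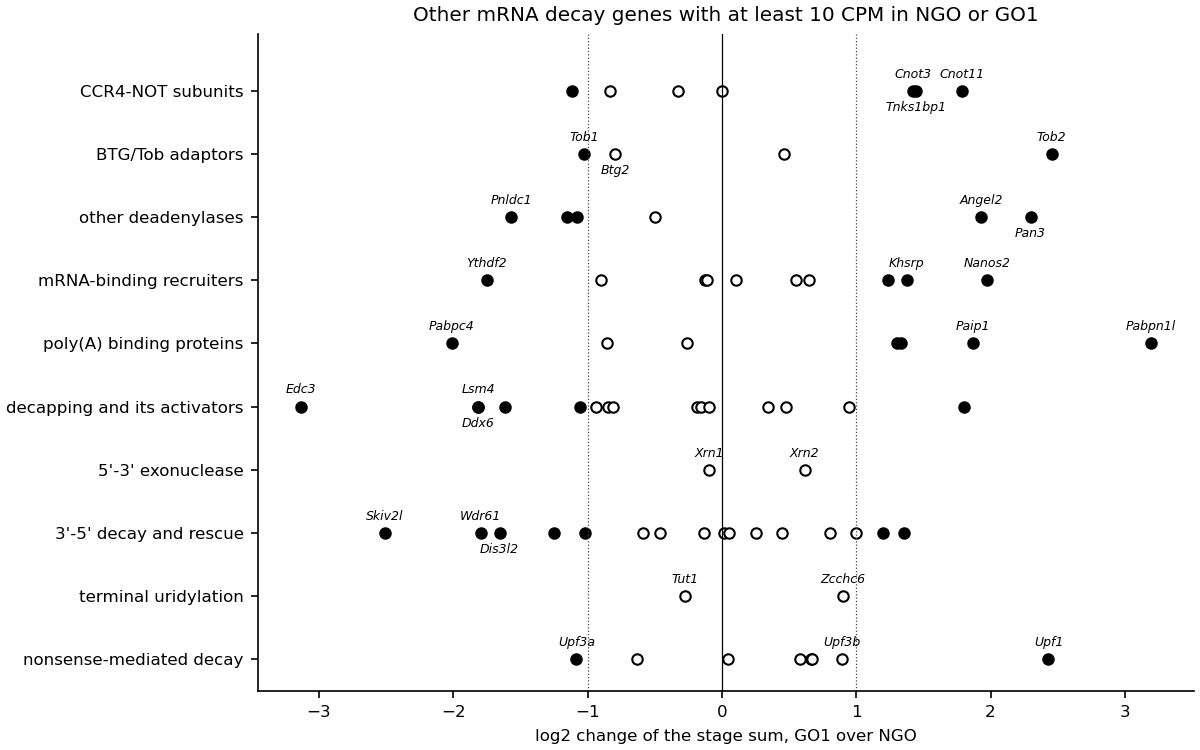
Log2 change from NGO to GO1 of the 77 further decay genes that had 10 CPM or more in one of the stages, by functional group, filled where past the 2-fold rule, with dotted lines at 2-fold. *Pabpn1l* lies furthest to the right and *Edc3* furthest to the left.

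From GO1 to FGO, 6 of the 74 further genes tested were higher and 5 lower, near the 7.98% higher and 9.03% lower among all genes. The number called ranged from 7 with an equal number of cells to 35 in the shallower cells. Shares of all genes under those settings are not given here, so this range is not read as a result about the decay genes. The higher ones were *Ythdf2* (96.2 to 228 CPM), *Ddx6* (36.1 to 82.9), *Patl2* (92.7 to 238), *Lsm1* (146.5 to 375), *Skiv2l* (19.1 to 43.1) and *Wdr61* (33.7 to 89.02). All but *Patl2* had fallen past the rule from NGO to GO1. The lower ones were *Cnot11* (127.1 to 60.8 CPM), *Pan3* (104.03 to 50.5), *Angel2* (290 to 118.97, kept in 5 of 9 alternatives), *Pabpn1* (41.6 to 16.7) and *Lsm14b* (80.6 to 29.4). All but *Lsm14b* had risen past the rule from NGO to GO1 in the sums, as *Cnot7* and *Cnot6l* had. With both sets of scaling factors *Lsm14b* had risen past it too (log2 1.05 and 1.11). Both comparisons use GO1, so their values are set side by side only.

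The genes whose profile over the 5 stages was nearest to those of 3 members were sought among 8671 genes, by the root mean square difference of centred log2(CPM + 1). Nearest to *Btg4* were *Zcchc10* (0.0612), *Cyct* (0.0675) and *Plk4* (0.0705), the kinase of centriole duplication. *Plk4* was at 57.5, 167, 161, 135.7 and 108.7 CPM from NGO to FGO. Nearest to *Zfp36l2* were *Pip5k1a* (0.0673), *9430021M05Rik* (0.0746) and *Zfp27* (0.0775). *Pip5k1a*, a phosphoinositide kinase gene, was at 21.2, 7.55, 4.72, 7.89 and 12.7 CPM. Nearest to *Cnot6l* were *Stk40* (0.0335), *Pik3ca* (0.0393) and *Cpeb4* (0.0445), of which *Cpeb4* encodes a protein that binds cytoplasmic polyadenylation elements. *Cpeb4* was at 5.36, 21.04, 13.2, 11.8 and 9.17 CPM from NGO to FGO. Each profile rests on 5 stage sums that share their depth, and the list is a description.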

How the data were processed

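The 223 cells were sequenced in 4 libraries. The deposited values are UMI counts for each gene in each cell, not normalized, for cells that passed filters of the authors on genes, transcripts and spike-ins. Tophat was the aligner and the mm9 transcriptome the reference, and barcodes gave the cell of a read. The strand of counting is not given in the sources used here. A second deposited file lists cell barcodes by library and was used for 1 count: of 96 different barcodes over 296 wells, all 96 were used in 2 or more libraries. It holds no cell names, so the library of a cell is unknown. The tests planned for sums per library could not be run, and the rule of size (2-fold and 10 CPM in the higher stage) was used. No replicate check exists, and values per cell are descriptions.

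CPM were computed from counts summed over the cells of a stage. Intervals are exact Poisson, or exact from the binomial split of 2 counts, at 95%. No doublet caller was run, since the oocytes were picked by hand. Positions are from GENCODE vM1 on NCBIM37, the same build as mm9, and promoters from RefSeq on GRCm38.p6. The wider list of 93 decay genes was described by group, naming the 3 genes with the largest change from NGO to GO1 and genes called from GO1 to FGO. Genes whose call was lost under either scaling were named as well. The members and lists were chosen with earlier results of these data known. Alternatives were TMM factors from edgeR 4.0.16 and median-of-ratios factors from DESeq2 1.42.0, both used for scaling only, the mean and the median over cells, sums leaving out the 10 deepest cells per stage, the deeper and the shallower cells, an equal number of cells per stage, cells thinned to 20000 UMIs, and limits of 1.5-fold, of 50 CPM and without a filter. Alternatives for the share of *Cnot7* were chosen after seeing the data. Software was R 4.3.3 and Python 3.11.15 with scipy 1.17.1, numpy 2.4.6, matplotlib 3.10.9 and pandas 2.3.3. The iscCOOL-seq data were not analysed here.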

Additional observations from a re-analysis of the deposited data

How the results depend on the processing

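No paired analysis was possible because cells carry no library number and each stage is 1 pooled sample. Of the alternative values of a log2 change of the 10 genes, 200 moved by less than their counting interval, 339 moved by more, and 1 value past the rule reversed: *Cnot6* from GO1 to GO2, from −1.19 to 0.056 with the median over cells. The number of the 10 genes called from NGO to GO1 (7) stayed within 1.5 times under every alternative. From GO1 to GO2 (2) it was 0 with DESeq2 factors and with 50 CPM, 1 with TMM factors, the mean over cells or an equal number of cells, each lower, and 1 with the median over cells, a rise of *Cnot8*. From GO2 to GO3 (0) it was 1 with 1.5-fold (lower) and 1 with thinned cells (higher). From GO3 to FGO (0) it was 1 with 1.5-fold (lower), 2 with the shallower cells (1 higher, 1 lower) and 2 with thinned cells (both higher). From GO1 to FGO (2) it was 6 with 1.5-fold, 4 with the mean over cells and 7 with the shallower cells. From NGO to FGO (2) it was 7 with 1.5-fold, and 1 with the median over cells, without the 10 deepest cells, with the shallower cells or with an equal number of cells, where the call of *Cnot8* was lost. That call was also lost with the mean over cells and with thinned cells, where other genes passed the rule instead. Of the 93 further genes, 35 were called from NGO to GO1 and 53 with 1.5-fold. From GO1 to GO2 (2) the number was 0 with DESeq2 factors, 1 with TMM factors or 50 CPM, 7 without a filter, 11 with 1.5-fold or without the 10 deepest cells, 8 with the mean and 15 with the median over cells, 19 with the shallower and 16 with thinned cells. From GO2 to GO3 (6) it was 12 without a filter, 13 with 1.5-fold, 11 with the shallower and 15 with thinned cells. From GO3 to FGO (0) it was 3 with DESeq2 factors, TMM factors, no filter or without the 10 deepest cells, 6 with 1.5-fold, 2 with the mean and 1 with the median over cells, 8 with the shallower cells, 4 with an equal number and 7 with thinned cells. From GO1 to FGO (11) it was 18 without a filter, 25 with 1.5-fold, 23 with the mean, 27 with the median over cells or without the 10 deepest cells, 35 with the shallower cells, 7 with an equal number and 28 with thinned cells. From NGO to FGO (19) it was 39 with 1.5-fold. More calls with 1.5-fold or without a filter, and fewer with 50 CPM, follow from the rule itself, and the cause of the other changes was not tested. Shares of all genes called are given for the stage sums and not for the alternatives, so these counts are not set against them. Genes under about 10 CPM, such as *Zfp36l2* with 57 UMIs in GO2, rest on few molecules, and sums over GO1 rest on few cells. More abundant genes also differed between deeper and shallower cells, as *Cnot8* did in GO1.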
